A study of Mus musculus with 8 samples.

Results

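Chondrocytes of the *Hic1* lineage were examined in 2 single-cell RNA libraries of mouse forelimbs at embryonic day (E) 16.5. A cell was included when it held at least 3000 unique molecular identifiers (UMIs, the tags that mark each captured transcript), at most 10% of UMIs from mitochondrial genes, and 2 or more UMIs in at least 3 of 7 cartilage genes, *Col2a1*, *Col9a1*, *Col9a3*, *Acan*, *Matn1*, *Lect1* and *Hapln1*. The gate found 1282 of 11109 filtered cells of the proximal library and 569 of 8447 of the distal library, 1851 of 19556 in all. The whole series held 53085 filtered cells in 8 libraries. The cells were chosen by these 7 genes, so values of those genes, and of all genes in a contrast of gated with other cells, are descriptions without a test.

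Both libraries were made from C57BL/6J embryos homozygous for *Hic1* CreERT2 and for the Rosa26 LSL tdTomato reporter, whose dams had received 7.5 mg of tamoxifen by gavage at embryonic day 10. *Hic1* encodes a transcriptional repressor, and tdTomato marks the cells in which Cre was active after tamoxifen together with all of their descendants. The proximal library came from the segment holding the elbow joint, the distal stylopod (upper arm) and the proximal zeugopod (forearm), and the distal library from the distal zeugopod and the autopod (paw). Forelimb segments were pooled and tdTomato+ cells were purified by FACS, which also removed cells bearing blood and endothelial surface markers, so each segment is 1 library of pooled embryos with no replicate and no test between segments was possible. The reporter does not show which descendants still express *Hic1*, and every embryo carried the CreERT2 insertion on both *Hic1* alleles.

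Limb cartilage forms when mesenchyme condenses and switches on *Sox9*, which with *Sox5* and *Sox6* drives the genes of collagens II, IX and XI and of aggrecan. In the growth plate, chondrocytes pass from a resting to a dividing state and then enlarge as hypertrophic cells that make collagen X, while cells next to joint clefts keep a separate articular fate and those at the surface meet the perichondrium and tendons. Cartilage proteoglycans carry chondroitin sulfate, whose assembly uses much activated sulfate.

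The median depth of the gated cells was 17954 UMIs against 18526 for all other cells in the proximal library, and 17694 against 17237 in the distal one, and 26022498 and 11080450 UMIs in all lay in gated cells. The libraries shared 32 cell barcodes. The libraries were counted by the authors with different releases of Cell Ranger, so differences between segments may also hold differences of counting. Scrublet called 1 of 11109 and 0 of 8447 cells doublets, too few to have worked, so no doublets were removed, and the 6% of cells with the highest doublet scores held 12.6% and 12.1% of the gated cells, against 5.14% and 5.17% of the others.

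Gated cells made up 11.5% of the proximal library (exact binomial 95% interval 11 to 12.1%) and 6.74% of the distal one (6.21 to 7.29%). These intervals, like all others given, cover counting error only, and the sort for tdTomato can set these shares. With every cell thinned to 3000 UMIs the shares were 9.22% (8.69 to 9.77%) and 3.91% (3.5 to 4.34%). In the proximal library 801 gated cells passed on all 7 genes, 62.5% of those gated, and in the distal library 187 did, 32.9%. Just inside the gate, 153 proximal and 152 distal cells passed on exactly 3 genes, with a median of 15 and 16 UMIs over the 7 genes. Just outside, 447 and 346 cells passed on 2, with a median of 7 and 8 UMIs, whereas cells with all 7 had a median of 972 and 501.

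**Figure D1:**
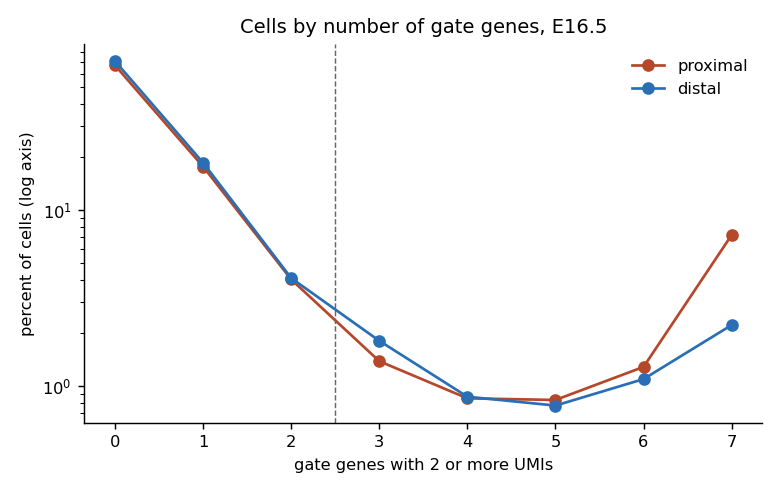
Share of filtered cells of each E16.5 library (log axis, percent) by the number of the 7 gate genes with 2 or more UMIs, 1 point per number and library. The dashed line marks the gate, and both libraries have a second peak at all 7 genes, of 801 cells in the proximal and 187 in the distal library.

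Cartilage gene transcripts were concentrated in the gated cells. The 7 genes gave 3.42% of all UMIs of the proximal gated cells and 1.3% of the distal ones, and the gated cells held 98.1% and 91.4% of each library's UMIs of these genes. On the scale of CPM, the UMIs of a gene per 1000000 UMIs of the summed cells, *Col2a1*, the chain of collagen II, was at 15658 against 33.5 CPM in gated against all other cells of the proximal library and at 6467 against 29.2 CPM in the distal one. Later values set gated against other cells in the same way, the proximal library first. *Matn1*, a matrilin that links cartilage fibrils and proteoglycans, was at 4590.3 against 7.63 CPM and at 476 against 0.452 CPM. *Acan*, the core protein of aggrecan, was at 1102 against 4.69 CPM and 658 against 10.8 CPM. *Hapln1*, the link protein that fixes aggrecan to hyaluronan, was at 1219 against 3.02 CPM and 768 against 8.84 CPM, and *Lect1* (chondromodulin), an inhibitor of vessel growth, at 1606 against 4.97 CPM and 736 against 10.1 CPM. The collagen IX chains *Col9a1* and *Col9a3* were at 3240.2 against 8.99 CPM and 6831 against 21.8 CPM in the proximal library and at 1492 against 13.2 CPM and 2451 against 18.9 CPM in the distal one. All 7 were higher in proximal than in distal gated cells, by between 1.59-fold for *Hapln1* and 9.62-fold for *Matn1*. These genes chose the cells, and 62.5% of proximal but 32.9% of distal gated cells passed on all 7, so this order is only a description.

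The 7 protein-coding gate genes lie on 7 chromosomes (GRCm38, GENCODE), with *Col2a1* at chr15:97975602-98004695, *Col9a1* at chr1:24177610-24252684, *Col9a3* at chr2:180597790-180622189, *Acan* at chr7:79053483-79115099, *Matn1* at chr4:130944385-130955475, *Lect1* at chr14:79637690-79662170 and *Hapln1* at chr13:89539796-89611652. RefSeq promoters (GRCm38.p6, from 250 bases before to 50 after the annotated start) were at hand for 5 of the 7. Those of *Matn1* (chr4:130944135-130944434, + strand), which had the largest gap between the segments, *Hapln1* (chr13:89540386-89540685, + strand) and *Lect1* (chr14:79662134-79662433, − strand) are shown beside that of *Col10a1* (chr10:34389731-34390030, + strand), which lay almost entirely in 2 gated cells.

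Capitals mark 4 short motifs on either strand, TATAAA, which is a TATA box, ACAAAG, the first of the cores bound by Sox proteins, ACAATG, another of these Sox cores, and ACCACA, a core bound by Runx proteins, and no match overlaps another here. A match on the strand not printed appears as its reverse complement.
Matn1: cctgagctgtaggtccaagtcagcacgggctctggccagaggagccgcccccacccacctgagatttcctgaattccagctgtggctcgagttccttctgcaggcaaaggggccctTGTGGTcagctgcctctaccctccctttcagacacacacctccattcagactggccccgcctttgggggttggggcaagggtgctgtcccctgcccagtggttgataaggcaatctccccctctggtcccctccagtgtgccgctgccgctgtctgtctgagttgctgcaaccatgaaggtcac
Hapln1: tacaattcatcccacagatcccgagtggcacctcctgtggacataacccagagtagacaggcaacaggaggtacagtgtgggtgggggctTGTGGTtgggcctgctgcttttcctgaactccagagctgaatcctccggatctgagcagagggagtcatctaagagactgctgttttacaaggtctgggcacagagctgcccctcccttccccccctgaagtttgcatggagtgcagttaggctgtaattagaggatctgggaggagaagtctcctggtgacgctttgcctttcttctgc
Lect1: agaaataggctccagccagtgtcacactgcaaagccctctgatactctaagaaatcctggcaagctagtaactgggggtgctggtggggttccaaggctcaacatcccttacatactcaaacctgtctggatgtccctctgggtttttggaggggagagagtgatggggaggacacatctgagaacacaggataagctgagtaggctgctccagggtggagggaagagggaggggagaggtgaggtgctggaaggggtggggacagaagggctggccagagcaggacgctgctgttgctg
Col10a1: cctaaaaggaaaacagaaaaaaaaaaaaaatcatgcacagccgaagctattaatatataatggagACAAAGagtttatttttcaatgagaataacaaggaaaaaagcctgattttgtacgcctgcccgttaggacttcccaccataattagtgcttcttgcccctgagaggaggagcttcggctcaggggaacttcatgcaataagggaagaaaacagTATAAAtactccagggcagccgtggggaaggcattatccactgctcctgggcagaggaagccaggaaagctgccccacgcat

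*Matn1* and *Hapln1* each held ACCACA once, *Lect1* held none of the 4 motifs, and *Col10a1* held TATAAA once and ACAAAG once. Of all 32851 promoters in the table, the TATA box letters were held by 13.6%, the Sox cores by 18.7% and 12.6% in the order above, and the Runx core by 16.8%. Over the 5 gate genes with a promoter, 0 held the TATA box letters or a Sox core and 2 held the Runx core. These matches are descriptions of the letters in 300 bases and not binding sites.

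Levels differed in steps with the number of gate genes passed, also for genes that did not define the gate. The groups of cells were made by the gate genes, so these levels are a description. *Sox9*, the transcription factor that starts chondrogenesis, was at 38.1 CPM in proximal cells with none of the 7 genes, at 127 (95% Poisson interval 115 to 139.5) with 3, at 444 (412 to 478) with 5 and at 990.3 (976 to 1005) with all 7. In distal cells the same counts of genes gave 30.3, 263 (245 to 283), 679 (634 to 726) and 911 (882 to 941) CPM. In cells with 6 genes *Sox9* was at 751 and 878 CPM.

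Matrix genes differed in how their levels in cells with 5 or 6 gate genes compared with those in cells with 7. *Col11a2*, a chain of collagen XI, was at 156 and 68.8 CPM in proximal and distal cells with 5 genes but at 1898 and 1142 with 7. *Ucma*, a secreted cartilage protein, went from 51.9 and 11.9 to 325 and 361 CPM. *Matn1*, itself a gate gene, was at 76 and 12.4 CPM in cells with 6 genes and at 6897 and 1294 in cells with 7. All cells with 7 genes must hold 2 or more *Matn1* UMIs, so the grouping itself sets a step for this gene. *Cytl1*, a secreted protein of cartilage, was at 284 and 867 CPM with 5 genes against 664 and 1524 with 7, and *Comp* at 478 and 182 against 1627 and 993. The forkhead factor *Foxa3* was at 1.83 (0.671 to 3.98) and 1.8 (0.584 to 4.2) CPM with 3 genes and at 140.2 and 92.9 with 7.

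*Tnmd*, *Scx* and *Col1a1* were highest in cells with 2 to 4 gate genes in both libraries. *Tnmd*, a tenocyte gene related to *Lect1*, was at 173 CPM in proximal cells with no gate gene, 1039.9 with 2, 1271 with 3, 1188 with 4 and 71.5 with 7. In the distal library the values were 102, 881, 751, 456 and 20.7 CPM. *Scx*, a tendon transcription factor, was highest with 4 genes in the proximal cells (206 CPM) and with 2 in the distal cells (156 CPM), against 39.7 and 14 with 7. *Col1a1*, the main collagen of tendon and bone, was highest with 4 genes in the proximal (14539 CPM) and with 3 in the distal cells (12654 CPM), against 1271 and 1621 with 7. *Col3a1*, a collagen of loose connective tissue, was highest with 2 genes in the proximal (6166 CPM) but with none in the distal cells (6047 CPM), against 944 and 1178 with 7. *Dcn*, a proteoglycan of fibrous tissue, was highest with none in both, at 2329 and 2791 CPM. After thinning, 24.7% (19.4 to 30.6%) of proximal and 14.2% (9.94 to 19.5%) of distal cells with 3 or 4 gate genes had a UMI in at least 3 of 6 tenocyte genes (*Scx*, *Tnmd*, *Mkx*, *Thbs4*, *Kera*, *Htra3*), against 1.37% (0.687 to 2.44%) and 0.535% (0.0135 to 2.94%) of cells with all 7 and 8.81% (8.26 to 9.39%) and 6.35% (5.82 to 6.91%) of the other cells. As deposited, the shares for 3 or 4 genes were 66% and 38.2%. Cells with 3 gate genes thus held tendon genes beside lower levels of cartilage genes outside the gate, with *Col9a2*, a chain of collagen IX, at 193 and 181 CPM against 4089 and 2296 with all 7. The gate genes set this order, so it is no test of the name chondrocyte.

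**Figure D2:**
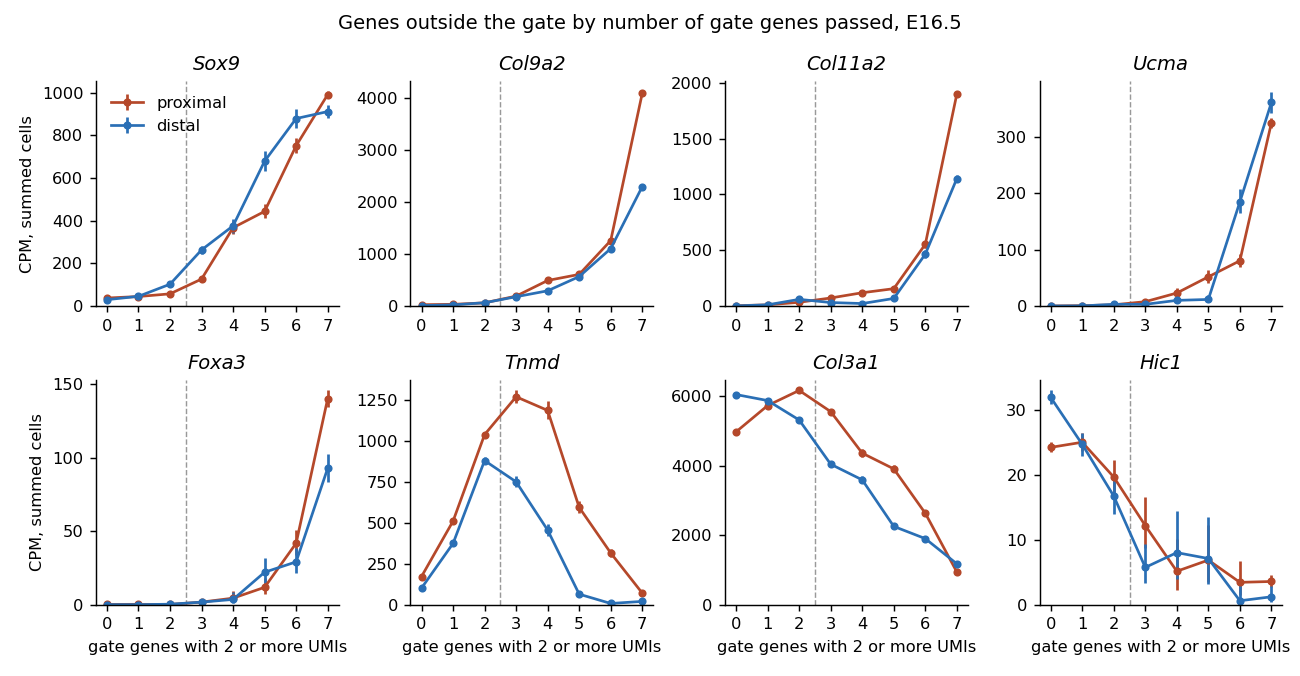
Levels (CPM of summed cells, linear axes from 0, with 95% Poisson intervals) of 8 genes outside the gate in cells grouped by the number of gate genes passed, for the proximal and distal libraries. Cartilage genes are highest at 7 genes, *Tnmd* is highest at 2 or 3 genes, and *Col3a1* and *Hic1* are lowest at 6 or 7 genes.

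Against all other cells of the same library, the gated cells differed by 2-fold or more in CPM+1 for 458 higher and 723 lower of 8436 proximal genes at 10 CPM or more in either group, and for 421 higher and 530 lower of 8597 distal genes. Over all genes 5.43% were higher and 8.57% lower in the proximal library, and 4.9% and 6.16% in the distal one, which is the background for the counts of each gene group that follow. Because the gate used these same cells, nothing is read from the counts beyond their description. A gene is called measured where it reached 10 CPM in either group. There were 258 genes higher and 361 lower in both. The median log2 ratio of all genes was 0.03 in the proximal and 0.09 in the distal library.

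Cartilage matrix genes outside the gate were the highest group. All 18 measured of 19 were at least 2-fold higher in the proximal gated cells (median log2 ratio 6.97) and all 17 measured in the distal ones (5.24). *3110079O15Rik* (Snorc), a small membrane proteoglycan of chondrocytes, was at 792 against 0.929 CPM in the proximal and 168 against 0.31 CPM in the distal library. *Cytl1*, a secreted cytokine-like protein of cartilage, was at 519.9 against 1.06 CPM and 845 against 2.71 CPM, and was the matrix list gene with the highest ratio in the distal library. *Matn3*, a matrilin of growth plate cartilage, was at 375 against 0.938 CPM and 276 against 0.60 CPM, and *Ucma* at 228 against 0.589 CPM and 162 against 0.472 CPM.

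*Comp*, a pentameric matrix protein shared with tendon, was at 1230.0 against 3.95 CPM in the proximal and 538 against 17.2 CPM in the distal library. *Epyc*, a small leucine-rich proteoglycan of growth cartilage, stood apart between the segments, at 964 against 7.67 CPM in the proximal and 51 against 7.43 CPM in the distal library, a ratio of 111 against 6.17. *Col9a2*, *Col11a2*, *Matn4*, *Mia* and *Scrg1*, also named by the ratio rule, were between 90.1- and 205-fold higher in the proximal and between 37.8- and 64.1-fold higher in the distal gated cells. Outside the lists, the rule named *Susd5* (88.2- and 124-fold), *Fam180a* (70.1- and 51.3-fold) and *Fzd9*, a Wnt receptor (92.5- and 49.4-fold).

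Of 18 chondrogenic transcription factors, 9 of 16 measured were higher in the proximal and 8 of 14 in the distal gated cells, and 2 were lower in each. *Sox9* was at 789 against 40.8 CPM and 651 against 37.2 CPM. Its partner *Sox5* was at 146 against 2.46 CPM and 249.7 against 15.8 CPM, and *Sox6* at 84.4 against 3.96 CPM and 115 against 14.9 CPM, so the ratios were smaller in the distal library, where other cells held more of both. *Foxa3* had the largest ratio among the factors, at 98.1 against 0.278 CPM and 41.7 against 0.121 CPM. After thinning, a *Foxa3* UMI was found in 23.4% (21.1 to 25.8%) of proximal and 10.9% (8.46 to 13.8%) of distal gated cells and in 0 of 1183 and 0 of 154 epithelial cells outside the gate, which by the limit of 3 counts allow up to 0.254% and 1.95% there. Those epithelial cells, taken as contaminants, had median depths of 33061 and 24008 UMIs before thinning. As deposited the gated *Foxa3* shares were 60.0% and 34.8%, against 3 of 1183 and 0 of 154 epithelial cells. The epithelial cells were not free of other cartilage genes. A thinned *Sox9* UMI was in 17.3% and 4.55% of them, against 8.99% and 8.64% of all other cells. Thinned *Col2a1* was in 5.24% and 5.19% of the epithelial cells and *Matn1* in 2.28% and 0%. As deposited, *Col2a1* was in 44.2% and 20.8%. *Foxc1*, a forkhead factor of skeletal mesenchyme, was at 69.6 against 6.17 CPM and 133 against 11.7 CPM. *Shox2*, a regulator of the proximal limb skeleton, was at 119 against 167 CPM in the proximal library but at 19.1 against 123 CPM in the distal one.

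Genes that build and sulfate glycosaminoglycan chains were higher in part. Of 17 measured of 19, 8 were higher in the proximal and 6 in the distal gated cells, 5 in both, and 0 were lower in either. The 5 were the sulfate transporter *Slc26a2* (6.69- and 3.88-fold), the activated-sulfate synthase *Papss2* (22.2- and 10.9-fold), the chondroitin sulfotransferase *Chst11* (22.7- and 8.76-fold), the xylosyltransferase *Xylt1* (14.7- and 4.42-fold) and the nucleotide-sugar transporter *Slc35d1* (6.76- and 3.0-fold). Their relatives *Papss1* (1.66- and 1.58-fold) and *Xylt2* (0.79- and 0.742-fold) did not reach 2-fold, so in both pairs 1 member passed 2-fold and the other did not. *Csgalnact1*, which starts chondroitin chains, was at 83.5 against 7.18 CPM in the proximal library but at 37.5 against 23.1 CPM in the distal one.

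Of 24 measured genes of the secretory pathway and collagen folding, 6 were higher in the proximal and 3 of 23 in the distal gated cells, and 0 were lower. The median log2 ratios of the list were 0.42 and 0.26. Those higher in both were *Plod2*, a collagen lysyl hydroxylase (288 against 48.5 CPM and 223 against 74.1 CPM), *P4ha1*, a prolyl hydroxylase subunit (2.89- and 2.1-fold), and *Creb3l2*, a factor that expands secretory capacity (2.81- and 2.06-fold). The endoplasmic reticulum chaperone *Hspa5* was at 726 against 862 CPM and 985 against 1066 CPM, and the collagen chaperone *Serpinh1* at 1993 against 1428 CPM and 1639 against 1509 CPM.

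Among 31 genes of growth plate signalling, 10 of 23 measured were higher in each library, 7 of them in both, and 2 in the proximal and 1 in the distal library were lower. Of the receptors, *Fgfr3*, which restrains chondrocyte division, was at 87.6 against 3.57 CPM and 78.8 against 3.58 CPM, nearly the same ratio in both segments. *Fgfr2* was 4.68- and 3.87-fold higher, and the BMP receptor *Bmpr1b* was at 15.9 against 6.74 CPM and 81.3 against 12.9 CPM. *Pth1r*, the receptor of the parathyroid hormone-related peptide *Pthlh*, was at 86.9 against 79.2 CPM and 97.9 against 92.8 CPM, without a difference of 2-fold.

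Of the secreted inhibitors, *Nog*, which binds BMPs, was at 86.4 against 4.76 CPM and 32.6 against 12.9 CPM, and *Frzb*, which binds Wnts, at 127 against 3.17 CPM and 29.2 against 1.57 CPM. *Wif1*, another Wnt inhibitor, was 4.63-fold higher in the proximal and 1.33-fold in the distal gated cells. Of the ligands, *Gdf5* was at 49.2 against 0.464 CPM and 14.3 against 1.93 CPM, *Bmp5* 6.32- and 2.03-fold higher, and *Gdf10* at 42.3 against 20.8 CPM in the proximal and 175 against 15.4 CPM in the distal library. *Igf1* was lower, at 186 against 664 CPM and 51 against 335 CPM.

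*Col10a1* and *Ibsp* came from very few proximal cells. *Col10a1*, the defining collagen of hypertrophic cartilage, had 1286 UMIs in the proximal gated cells, and 1172 of them lay in a single cell and 108 in another. The first cell, with 36868 UMIs and all 7 gate genes, also held 411 of the 440 *Ibsp* UMIs and 343 of the 834 *Spp1* UMIs, 1134 UMIs of *Col2a1* and 20 of tdTomato. The second, with 36813 UMIs, held 36 UMIs of *Ihh*, 85 of *Pth1r*, 55 of *Spp1* and 0 of *Ibsp*. *Col10a1* was at 49.4 CPM (45.2-fold) with all cells, at 4.39 CPM without the first cell and at 0.231 without both, against 0.115 in the other cells. The ratio of *Ibsp*, a bone matrix protein, went from 3.5 to 0.413 without the first cell. Leaving out the 6% of cells with the highest doublet scores gave log2 ratios of 2.54 for *Col10a1* and -1.19 for *Ibsp*. In the distal gated cells *Col10a1* had 5 UMIs in 4 cells, and no cell held more than 2.

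*Ihh*, the signal of prehypertrophic chondrocytes, was spread more widely. It had 170 UMIs in 87 proximal gated cells, at most 36 in a cell, and 45 UMIs in 29 distal gated cells, at most 5 in a cell. This gave 6.53 (5.59 to 7.59) and 4.06 (2.96 to 5.43) CPM against 0.0814 and 0.081 in other cells. *Spp1* (osteopontin) had 834 UMIs in 106 proximal and 852 in 93 distal gated cells, at 32 against 6.43 CPM and 76.9 against 1.93 CPM. Without the first cell the proximal level of *Spp1* was 18.9 CPM and its ratio 2.68 in place of 4.45, and no distal cell held more than 76 of its UMIs. Of the 852 distal UMIs, 360 lay in the 91 cells of cluster 8, all distal, at 289 against 37 CPM in all other gated cells. Only 2.2% of the cells of that cluster, described further on, had all 7 gate genes. *Runx2*, which drives hypertrophy and bone, was 4.18- and 2.59-fold higher. With the distal gated cells clustered alone, *Runx2* and *Spp1* were among the leading genes of a cluster of 102 cells, 86 of them in cluster 8. *Mmp13*, the collagenase of terminal chondrocytes, had 1 UMI in the gated cells of each library. Of 16 genes of the hypertrophy list, 5 of 10 measured were higher in the proximal and 3 of 6 in the distal gated cells. The proximal 5 were *Runx2*, *Spp1*, *Alpl*, *Col10a1* and *Ibsp*, and without the 2 cells the last 2 were under 10 CPM in both groups and so no longer measured. *Alpl*, the phosphatase of mineralising cells, had 174 of its 304 proximal gated UMIs in the 60 proximal cells of cluster 10, described further on, and without them was at 5.24 against 2.71 CPM and no longer measured.

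Of 12 joint and articular genes, 4 of 8 measured were higher and 2 lower in the proximal gated cells, and 2 of 6 higher and 1 lower in the distal ones. *Erg*, a factor of joint and articular chondrocytes, was at 11.7 against 1.74 CPM and 63 against 7.75 CPM. *Prg4* (lubricin), made at the joint surface, was at 14.1 against 2.39 CPM and 6.68 against 5.11 CPM, and *Cilp* was lower in both (2.16- and 3.06-fold). A thinned *Gdf5* UMI was found in 8.58% (7.1 to 10.2%) of proximal and 3.51% (2.16 to 5.38%) of distal gated cells, and in 0 of 1183 and 0 of 154 epithelial cells, with the same limits as for *Foxa3*. As deposited these were 24.8% and 12.1%, against 4 of 1183 and 1 of 154 epithelial cells.

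Of 22 hypoxia and glycolysis genes, 3 of 19 measured were higher and 2 lower in the proximal gated cells, and 6 of 18 higher and 2 lower in the distal ones. *Eno1*, a glycolytic enzyme (2.68- and 3.08-fold), and *Bnip3*, a hypoxia-induced mitophagy gene (3.97- and 2.59-fold), were higher in both. *Adm* and *Ndrg1*, other genes that respond to low oxygen, were lower in both, at 3.57 against 29.5 CPM and 27.4 against 61.3 CPM in the proximal and 1.8 against 15.1 CPM and 14.7 against 41.1 CPM in the distal library. The glucose transporter *Slc2a1* was at 79.6 against 57 CPM and 87.6 against 25.5 CPM.

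Cell cycle genes showed no difference of 2-fold in the proximal library (0 of 12 G2/M and 0 of 10 S phase genes), and in the distal library 2 of 12 G2/M genes, *Cdk1* (2.12-fold) and *Cdc20* (2.14-fold), passed it. After thinning, 14.6% (12.7 to 16.6%) of proximal gated cells had a UMI in at least 3 of 12 G2/M genes against 17.4% (16.6 to 18.1%) of the other cells, and 15.3% (12.4 to 18.5%) against 11.3% (10.7 to 12.1%) in the distal library. As deposited, the shares were 27.8% against 37.8% and 25.3% against 21.4%. The summed level of the 12 genes was higher in the gated cells of both libraries, at 971 against 796 CPM in the proximal and 1184 against 712 CPM in the distal library, and their median log2 ratios were 0.36 and 0.81. The proximal share went against the proximal sum, so no order was read from the shares.

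*Hic1* itself was low in its cartilage descendants. It was at 4.96 (4.14 to 5.89) CPM in proximal and 3.79 (2.73 to 5.12) CPM in distal gated cells, against 24.2 (23.5 to 24.8) and 29.7 (28.8 to 30.6) in the others, so it was 4.22- and 6.4-fold lower. Without the 125 proximal and 31 distal gated cells of cluster 6, which held 8 of 8 fibroblast markers and many high doublet scores, it was at 2.52 and 2.29 CPM. In cells with all 7 genes it was at 3.59 (2.75 to 4.6) and 1.23 (0.40 to 2.88) CPM. A thinned *Hic1* UMI was found in 0.936% (0.485 to 1.63%) and 1.41% (0.609 to 2.75%) of gated cells. The shares of epithelial cells were 2.03% (1.3 to 3.0%) and 2.6% (0.712 to 6.52%), with overlapping intervals in both libraries. The gated *Hic1* UMIs were unevenly spread, with 92 in cluster 6 (19 CPM), 2 in cluster 1 (0.253 CPM) and 0 in cluster 7. No *Hic1* expression of chondrocytes is therefore read from these shares. As deposited, *Hic1* was found in 6.32% and 4.92% of gated and 13.9% and 19.5% of epithelial cells.

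The tdTomato transcript was at 1033 against 1379 CPM and 692 against 865 CPM, a difference under 2-fold. Its level was lower in cells with all 7 genes, at 800.2 and 548 CPM. A thinned tdTomato UMI was found in 88.9% (87.1 to 90.6%) and 81.9% (78.5 to 85%) of gated cells, but also in 90.9% (89.1 to 92.5%) and 85.1% (78.4 to 90.3%) of epithelial cells, so no difference between cell types is read from this share. Of the progenitor genes, *Osr1* and *Osr2*, regulators of connective tissue, were lower in both libraries, at 12.5 against 51 CPM and 14 against 43.4 CPM in the proximal and 10.4 against 33.7 CPM and 6.59 against 53.9 CPM in the distal one. *Id1*, a target of BMP signalling, was higher, at 200.5 against 84.3 CPM and 546 against 199.9 CPM. Of the 12 genes in this list, 2 of 11 measured were higher and 3 lower in the proximal, and 1 higher and 4 lower in the distal library.

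Genes of fibroblasts were lower, and those of other connective cells in part. All 8 fibroblast genes in the proximal and 6 of 7 measured in the distal library were lower, among them *Mfap5*, a microfibril protein (78.5 against 449 CPM and 67.5 against 339 CPM), and *Dpt* (26.7 against 135 CPM and 32.9 against 145 CPM). Most of the gated *Mfap5* UMIs lay in cluster 6, without which it was at 18.3 and 25.8 CPM, and *Dpt* was at 7.61 and 21.1 CPM. *Dcn*, the proteoglycan decorin, was at 741 against 2280.3 CPM and 490.0 against 2585 CPM. Of 14 genes of perichondrium and fibrous matrix, 2 were higher and 3 lower in the proximal and 3 higher and 3 lower in the distal gated cells, and the 2 higher in both were *Tnc*, a matrix glycoprotein of condensations (68.6 against 18.7 CPM and 280.3 against 72.4 CPM), and *Dkk3* (2.5- and 2.54-fold). In cells with all 7 genes the *Dkk3* ratio turned to 0.586 and 0.689. *Tnc* was uneven among the gated cells. It was at 8.74 CPM in the 424 cells of cluster 1, all proximal, against 165 in all other gated cells. In the 147 cells of cluster 7, all distal, *Tnc* was at 525 against 101 CPM. Both clusters are described further on. Of the 6 tenocyte genes, 1 was higher (*Mkx*, 2.15-fold) and 1 lower in the proximal and 0 passed 2-fold in the distal library. Summed over the list, tenocyte genes were at 562 against 593 CPM and 515 against 537 CPM, but at 187 and 86.3 CPM in cells with all 7 gate genes.

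Markers of further cell types were mostly lower or near 0. Of 7 dermal fibroblast genes 4 were lower and 1, *Lef1*, higher in each library, of 6 pericyte genes 5 were lower in the proximal and 1 lower and 1 higher in the distal one, and of 4 perineurial genes 2 of 3 measured were lower in the proximal and 1 of 1, *Slc2a1*, higher in the distal one. Of 6 osteoblast genes, *Ibsp* and *Alpl* were the 2 measured in the proximal library and both were higher, *Ibsp* through the single cell above and *Alpl* through the cells of cluster 10, while 0 were measured in the distal one. No gene of the myogenic (5), endothelial (7), immune (6) or glial (3) lists reached 10 CPM, and *Ptprc*, *C1qa* and *C1qb* were at 0 UMIs in the gated cells of both libraries. All 3 measured haemoglobin genes were lower, at most 0.461 CPM in proximal and 1.26 in distal gated cells, with log2 ratios down to -5.32 and -4.23. Without the 6% of cells with the highest doublet scores the log2 ratio of *Hbb-bs* was -0.47 in the proximal library and turned to 0.23 in the distal one.

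All 8 epithelial genes in the proximal and 7 of 7 measured in the distal library were lower in the gated cells, at 239 against 1716 CPM and 23.5 against 286 CPM for the keratin *Krt10*. The 8 summed to 772 against 5190.3 CPM in the proximal and 52.1 against 768 CPM in the distal library, and 0 genes of the list were at 0 UMIs in gated cells. Among genes at 50 CPM or more, the 12 with the smallest ratios in both libraries were *Mfap5* and 11 keratinocyte genes (*Krt1*, *Krt10*, *Sfn*, *Stfa3*, *Calm4*, *Ly6d*, *BC100530*, *Dmkn*, *Krtdap*, *Lgals7*, *Hspb1*), with *Krt1* at 138 against 1374 CPM and 11 against 239 CPM. By a rule of 2 or more UMIs in 2 or more epithelial genes, 1253 proximal and 163 distal cells were epithelial, 70 and 9 of them inside the gate, and their part in these ratios was measured by leaving them out of both groups, which brought *Krt1* to a log2 ratio of 0.33 and 0.19 and *Krt10* to -0.31 and -0.35.

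**Figure D3:**
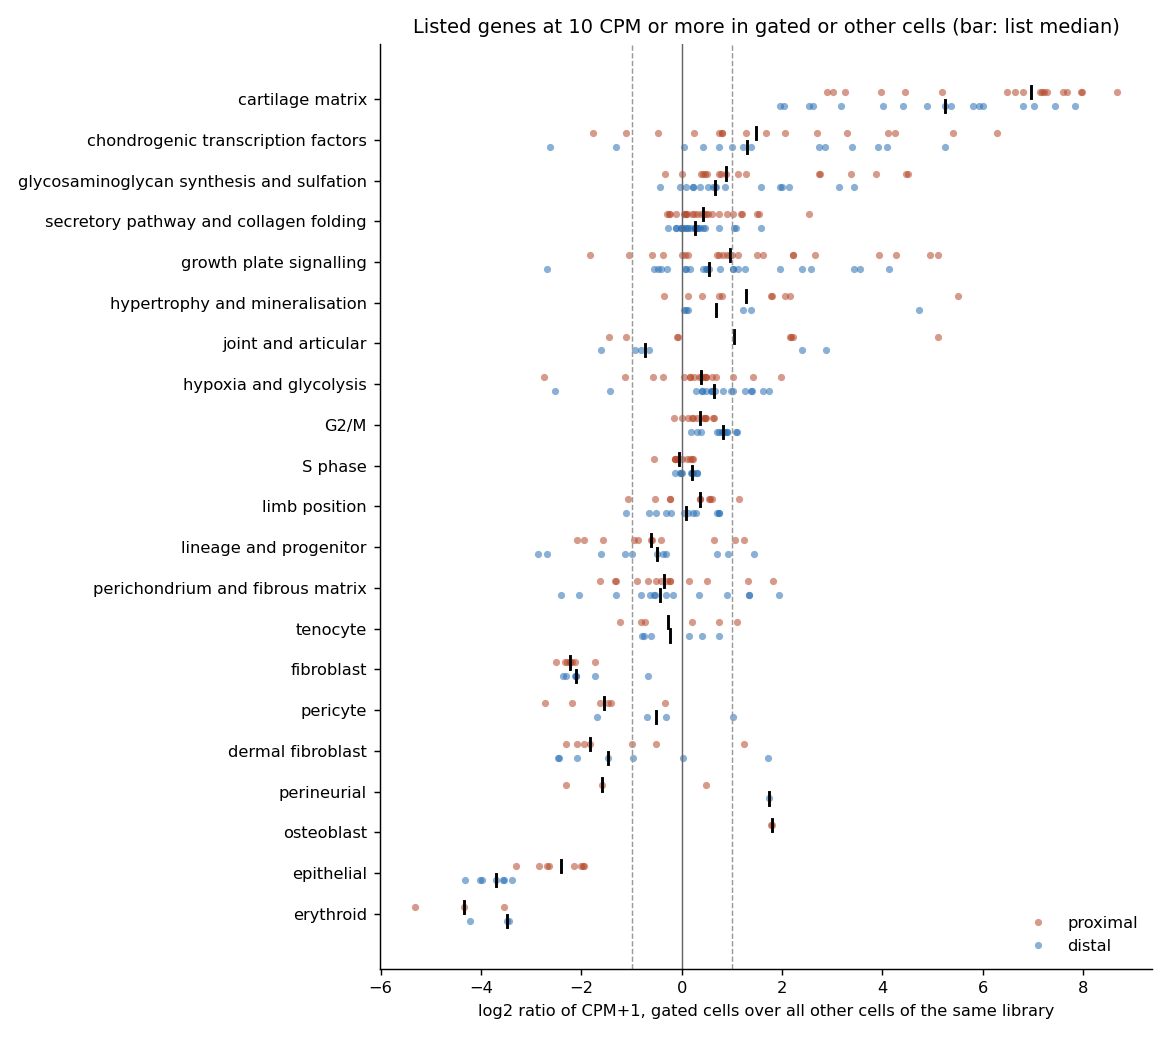
Each point is a listed gene at 10 CPM or more in gated or other cells, placed at its log2 ratio of CPM+1 in gated over all other cells of the proximal or distal library; black bars are list medians and dashed lines mark 2-fold. Cartilage matrix genes lie furthest to the right, with medians of 6.97 and 5.24, and fibroblast, epithelial and haemoglobin genes to the left.

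Distal and proximal gated cells differed by 2-fold or more at 749 of 8474 genes, 495 higher in the distal (5.84%) and 254 lower (3%). Of these, 267 differed the same way between the other cells of the 2 libraries, 170 of the 495 and 97 of the 254, where 378 genes were higher (4.46%) and 324 lower (3.82%) of 8473. Different clusters held most gated cells of each library, as described further on, and a comparison of cells with all 7 genes gave 552 higher (6.71%) and 317 lower (3.85%) of 8231.

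Positional genes differed between the segments inside and outside the gate. *Hoxd13*, a regulator of the autopod, was at 124 CPM in distal and 0.884 in proximal gated cells, and at 74.3 and 1.8 in the others. *Hoxa13* was at 48.9 and 0.115, and *Hoxd11* at 129 and 36.7 in the gated cells. The proximal factor *Meis2* was at 0.541 and 16.8 CPM in gated and 9.49 and 36.3 in other cells. Of 14 limb position genes, 4 of 12 measured were higher and 2 lower in distal gated cells, and the same counts held in cells with all 7 genes.

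A search made after the values were seen picked genes whose difference between the segments was larger in gated cells than in the others. Genes needed 50 CPM or more, a gated difference of 4-fold or more and less than 2-fold in the other cells, in CPM+1. The search found 4 genes higher in the distal and 10 higher in the proximal gated cells. Its rule sets this pattern, and no reverse search was made. Of the 10, *Mfi2* (0.393 and 0.533 CPM in proximal and distal other cells), *Scrg1* (0.632 and 0.344) and *3110079O15Rik* (0.929 and 0.31) could not pass 2-fold there once 1 was added. *Epyc* was at 964 CPM in proximal and 51 in distal gated cells, and at 7.67 and 7.43 in the others. *C1qtnf3*, a secreted protein of cartilage, was at 915 and 183, *Six2*, a homeobox factor, at 65.2 and 11, and *Shox2* at 119 and 19.1. The other proximal genes were *Mab21l2*, *Mfi2*, *Scrg1*, *3110079O15Rik*, *Frzb* and *S100b*. Some fell under 4-fold in cells with all 7 genes, with log2 ratios of distal over proximal of -1.96 for *C1qtnf3*, -1.84 for *Mfi2* and -1.50 for *Scrg1*. Those of *3110079O15Rik*, *Frzb* and *S100b* were -1.43, -1.40 and -1.53. *Epyc* (-3.71), *Mab21l2* (-3.95), *Six2* (-2.38) and *Shox2* (-2.48) stayed past 4-fold.

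The 4 distal genes were *Gdf10*, *Cox4i2*, *Bmpr1b* and *Acta2*. *Gdf10*, a TGF-beta family ligand, was at 175 CPM in distal and 42.3 in proximal gated cells, *Cox4i2*, a subunit of cytochrome oxidase, at 158 and 16.7, and *Bmpr1b* at 81.3 and 15.9. In cells with all 7 genes the log2 ratios of distal over proximal were 2.30, 3.18 and 2.31, close to those of all gated cells (2.02, 3.17 and 2.29). *Acta2*, smooth muscle actin, turned from 2.02 to -2.20, and 533 of its 556 distal gated UMIs lay in cluster 6. In cells with all 7 genes *Acta2* was at 0.986 CPM in the distal and 8.1 in the proximal library. Both are under 10 CPM, so *Acta2* was not measured there.

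Fewer cartilage matrix genes outside the gate differed between the segments in cells with all 7 genes than in all gated cells. Cells with all 7 genes were chosen on cartilage genes, so this smaller count is only a description. Of 18 measured matrix genes, 12 were at least 2-fold lower in distal gated cells, and 5 in cells with all 7 genes, where 1, *Cytl1*, was higher (log2 1.20). *Epyc* went from a proximal excess of 18.6-fold to 13.1-fold. For the gate genes *Col2a1* and *Matn1*, whose UMIs chose these cells, the excess was 2.42- and 9.62-fold in all gated cells, and nothing is read from their levels in cells with all 7 genes. *Ucma* and *Matn3* were close to even there, with log2 ratios of 0.15 and 0.24. Of the transcription factors, *Sox9* had a log2 ratio of -0.28 in all gated cells and -0.12 in those with all 7 genes, and *Sox5* 0.77 and 0.85.

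The 8 genes with the largest distal excess by the ratio rule were *Hoxd13*, *Rpl29*, *Sema3e*, *Robo2*, *Cox4i2*, *Gm10076*, *Spag7* and *Npnt*. *Rpl29*, *Gm10076* and *Spag7* differed as much between the other cells (log2 5.31, 3.20 and 2.60) as between the gated cells (5.06, 3.09 and 2.61), and the Cell Ranger release and the segment cannot be told apart. *Sema3e*, an axon and vessel guidance ligand, was at 68.6 CPM in distal and 3.46 in proximal gated cells, against 2.83 and 0.579 in the others, and *Npnt*, a matrix ligand of integrins, at 103 and 17.7, against 19.3 and 4.22. The 8 with the largest proximal excess were the keratinocyte genes *Calm4*, *Krtdap*, *Asprv1*, *Dmkn*, *Lor*, *Ly6d*, *Sprr1b* and *Sprr1a*, at log2 ratios between -5.88 and -5.06. In the gated cells they were led by the 20 proximal cells of cluster 13, with *Krtdap* at 8746 against 21.3 CPM in all other gated cells. With epithelial cells left out, the log2 ratios of the 8 lay between -2.87 (*Sprr1a*) and -1.25 (*Dmkn*), and with all cells they were lower in the distal library in the other cells too.

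**Figure D4:**
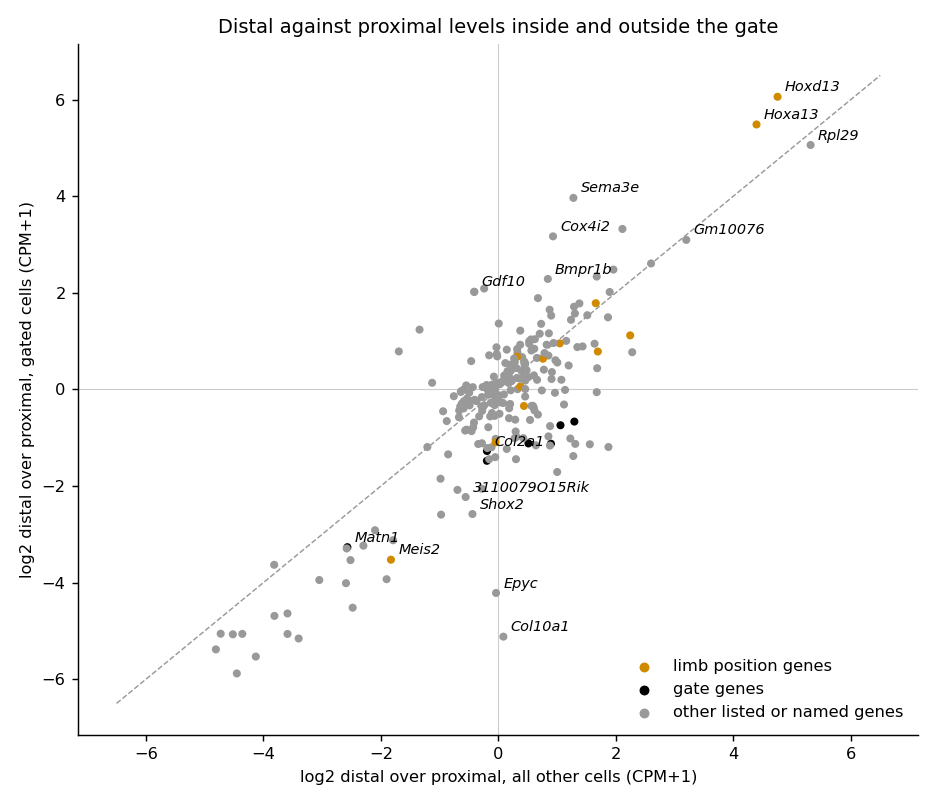
Log2 ratio of CPM+1 in the distal over the proximal library for listed and named genes at 10 CPM or more in gated cells, in all other cells (x axis) and in gated cells (y axis), with limb position genes, gate genes and a line of equal ratio marked. *Hoxd13* and *Hoxa13* lie high on both axes, *Epyc* and *Gdf10* differ mainly in gated cells, and the point of *Col10a1* rests on 2 proximal cells.

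The 1851 gated cells were not uniform. Clustered without the gate genes, the reporter and mitochondrial, haemoglobin and sex-linked genes, they fell into 13 clusters, 9 of which drew over 90% of their cells from 1 library. A cluster of 1 library may reflect that library and not a kind of cell, so sizes are given as counts, and clusters are called by number and leading genes.

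Clusters 1 and 9 of the proximal and 7 and 12 of the distal library had the largest shares of cells with all 7 gate genes. Cluster 1 (424 cells, all proximal, 99.3% with all 7 gate genes) was led by *Epyc*, *Matn1*, *Kctd4* and *Wisp3*, with *Epyc* at 2031 CPM against 329 in all other gated cells. Cluster 9 (86 cells, 85 proximal, 98.8% with all 7) was led by *Hist1h4i*, *Rrm2*, a nucleotide reductase subunit of S phase, and *Pbk*, with *Col2a1* at 23099 and *Rrm2* at 363 against 42.6 CPM. Cluster 7 (147 cells, all distal, 72.8% with all 7) was led by *Sema3e*, *Prune2* and *Jakmip2* and held *Cytl1* at 2157 against 495 and *Gdf10* at 330.4 against 62.2 CPM. Cluster 12 (46 cells, all distal, 78.3% with all 7) had the highest *Col2a1* of the distal clusters, 24702 CPM, with *Ihh* at 26.1 (16.6 to 39.2) against 5.3 CPM. *Epyc* was at 142 and 27.3 CPM in the distal clusters 7 and 12, far below cluster 1, while *Sox9* was at 1216, 1039 and 1113 CPM in clusters 1, 7 and 12.

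Cluster 2 (244 cells, 242 proximal, 57.4% with all 7) was led by *Tspan13*, *Gdf5*, *Tfrc* and *Adgrg6*. *Gdf5* was at 141 CPM against 28.2 and *Prg4* at 64.4 against 6.4, and 2 of 6 articular markers were at least 2-fold above all other gated cells, so the cluster stays unnamed. Their *Col2a1* was at 16367 CPM, below the 28253 of cluster 1.

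Clusters 3, 5, 8 and 10 had the smallest shares of cells with all 7 gate genes. Cluster 3 (182 cells, 179 proximal) was led by *Sfrp2*, *Tnmd*, *Epha5* and *Wif1*, with *Tnmd* at 1477 CPM and 7.14% of cells with all 7 gate genes. Cluster 5 (168 cells, 148 distal) was led by *Slc26a7*, *Ssc5d* and *Gas2* with *Tnmd* at 1262 CPM and 2.38% of cells with all 7. Of the 6 tenocyte markers, 5 in cluster 3 and 6 in cluster 5 were at least 2-fold above all other gated cells. Of 14 markers of perichondrium and fibrous matrix, 6 in cluster 3, 10 in cluster 5, 3 in cluster 8 and 8 in cluster 10 passed this mark. In cluster 10, 3 of 6 osteoblast markers did too. In each of these clusters 0 of the 7 gate genes passed it. The same held for every other cluster, 7 and 12 among them, except 1 (7 of 7) and 9 (3 of 7). The count of gate genes therefore does not set clusters 3, 5, 8 and 10 apart. Cluster 10 (66 cells, 60 proximal) had *Alpl* and *Scube2* among its leading genes, with *Alpl* at 134 against 6.15 CPM and *Dlx5* at 108 against 8.33, but *Sox9* at 132 and *Col2a1* at 748 CPM, the lowest of the 13 for both. Cluster 8 (91 cells, all distal, 2.2% with all 7) was led by *Gucy1a3*, *Prlr* and *Npnt* with *Hoxd13* at 193 and *Sox9* at 653 CPM. *Spp1* was also among its leading genes, at 289 CPM, with *Col2a1* at 1833 CPM.

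Cluster 4 (170 cells, 93 proximal and 77 distal) was led by *Aspm*, *Cenpf* and *Kif23* and had *Mki67* at 665 against 46.2 CPM, and all 8 mitotic markers were raised there and in cluster 9. Clusters 6, 11 and 13 carried genes of other cell types at high depth. Cluster 6 (156 cells, median 31008 UMIs) was led by *Acta2*, *Mfap5* and *Col5a3* with 8 of 8 fibroblast and 4 of 6 pericyte markers raised, cluster 11 (51 cells, 31391 UMIs) held 6 of 7 dermal fibroblast markers, and cluster 13 (20 cells, all proximal, 40608 UMIs) 8 of 8 epithelial markers. Of their cells 76.9%, 82.4% and 60% were among the highest doublet scores, against 0.472% of cluster 1. These 227 cells were 14% of proximal and 8.44% of distal gated cells, and without them 577 genes were higher and 938 lower in the proximal and 492 higher and 624 lower in the distal gated cells. In settings chosen after the data were seen, leaving out clusters 6, 11 and 13 together ended 0 of the 137 proximal and 0 of the 120 distal calls of listed or named genes, and leaving out cluster 10 ended 1 in each, *Alpl* in the proximal and *Ptch1* (1.99-fold) in the distal library.

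**Figure D5:**
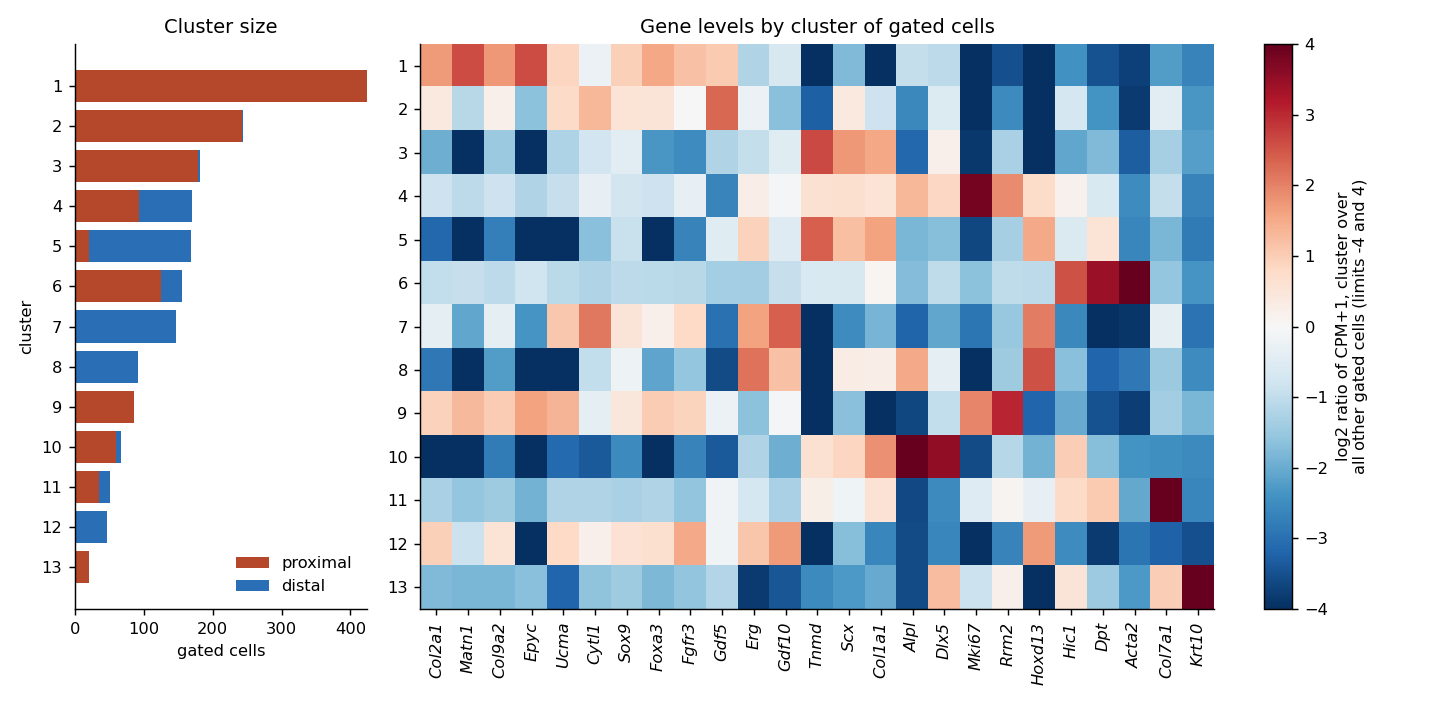
Left, gated cells in each of 13 clusters, coloured by library. Right, log2 ratio of CPM+1 in a cluster over all other gated cells for 25 genes (colours stop at -4 and 4); clusters 1, 9 and 12 hold the highest *Col2a1*, clusters 3 and 5 the highest *Tnmd*, and clusters 6, 11 and 13 *Acta2*, *Col7a1* and *Krt10*.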

How the data were processed

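UMI counts per gene and cell barcode were used as deposited. Per the file headers, the authors made these count matrices with Cell Ranger 3.0.2 (proximal) and 6.0.1 (distal) on a mm10 reference with 3 added sequences, tdTomato among them, 28001 features in all, and they hold filtered barcodes only. The study's reporting summary names another Cell Ranger release, and a doublet caller is not given in the sources used here. Barcodes with fewer than 3000 UMIs or more than 10% mitochondrial UMIs were left out, which kept 11109 of 11716 proximal and 8447 of 9061 distal barcodes. The study also removed epithelial clusters; here epithelial cells were kept and left out as an alternative. Total UMIs over all deposited barcodes were 236408650 and 160375326.

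The members, gene lists and alternatives were chosen with earlier results of these data known. UMIs were summed per group and scaled to CPM, with exact Poisson intervals. Ratios were taken of CPM+1, and a gene counted as higher or lower at 2-fold or more with at least 10 CPM in the higher group. With 1 library per segment and cells chosen on their expression, no test was run. Named genes were those of the lists on which a count turned, the 12 genes per direction with the largest smaller-of-both-libraries ratio of gated over other cells, and the 8 per direction between segments, each at 50 CPM or more, and any other gene named was chosen after its values were seen. Shares of cells with a UMI were taken after thinning each cell to 3000 UMIs. Gated cells were clustered with scanpy 1.11.5 (2000 variable genes, 30 components, 15 neighbours, Leiden resolution 0.6), and doublets were scored with Scrublet. Leading genes of a cluster had 50 CPM or more and a UMI in at least 20% of its cells. Marker counts of a cluster took markers at 2-fold or more over all other gated cells with a UMI in at least 10% of its cells. The ratio step was run on simulated Poisson counts with 200 changed genes per library, which checks the calculation only. Those counts held no effect of library, doublets or the choice of cells. Gene positions came from GENCODE and promoters from RefSeq, and no entry for *Col2a1* and *Col9a3* was used. Epithelial cells had 2 or more UMIs in 2 or more of 8 epithelial genes.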

Additional observations from a re-analysis of the deposited data

Results flagged for a closer look

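*Plcb1*, a phospholipase C, and *Mab21l2*, a limb and eye patterning gene, were the 2 genes past 2-fold in opposite directions in the 2 segments. *Plcb1* had a log2 ratio of gated over other cells of 1.93 in the proximal (50.2 against 12.4 CPM) and -1.05 in the distal library (12.5 against 27.1 CPM). *Mab21l2* had 1.86 (73.7 against 19.5 CPM) and -1.50 (8.12 against 24.7 CPM). With 1 library of each segment, neither difference was tested.

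The libraries outside the comparisons also held cells that passed the gate. After thinning to 3000 UMIs, the gate took 4.69% of cells from the sorted E14.5 library, 11% from that of E13.5, 0.976% from that of E12.5 and 0.221% from that of E11.5. It took 0.567% and 0.581% from 2 whole-limb E11.5 libraries. Those held lineage-negative cells (without blood and endothelial surface markers) not selected for tdTomato. As deposited, the shares in the same order were 8.6%, 17.5%, 5.09%, 2.53%, 2.14% and 1.88%. Cells with all 7 gate genes numbered 0 at E11.5 in all 3 libraries and 0 at E12.5, 21 of 1071 gated cells at E13.5 and 194 of 721 at E14.5, against 801 of 1282 and 187 of 569 at E16.5. The counts of cells with all 7 genes were taken without thinning, and depth differed. Median depth of gated cells lay between 5905 and 9998 UMIs in the libraries up to E13.5. It was 14816 UMIs in the E14.5 library, and 17954 and 17694 in the proximal and distal libraries. Per the paper, the libraries up to E13.5 were also made with an earlier version of the capture kit. These counts therefore cannot separate age from depth or kit. Each age had 1 sorted library, or 1 of each segment at E16.5, so no trend was tested.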

How the results depend on the processing

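The share of gated cells, 11.5% and 6.74%, moved with the gate, to 9.32% and 4.07% with 5 or more genes, 9.22% and 3.91% after thinning, 21.5% and 10.6% with 1 or more UMIs in 3 genes and 7.21% and 2.21% with all 7 genes. In the proximal library it was 12.3% without epithelial cells and 10.7% without the highest doublet scores. The share stayed higher in the proximal library under each setting given for both. Genes lower in gated cells numbered 1117 and 992 for cells with all 7 genes and 833 in the distal library when the gate followed thinning. Without the minimum of 10 CPM, 693 were higher and 1239 lower in the proximal and 990 lower in the distal library, and 828 higher and 607 lower between the segments, where CPM+5 gave 324 higher. The distal gated cells alone formed 7 clusters. The G2/M shares were 27.8% and 25.3% without thinning. Leaving epithelial cells out of the other cells turned the log2 ratio of keratinocyte genes to 3.02 for *Asprv1*, 3.23 for *BC100530*, 3.83 for *Calm4*, 3.67 for *Dmkn*, 1.41 for *Hspb1*, 3.55 for *Krt1*, 2.55 for *Krt10*, 3.73 for *Krtdap*, 3.74 for *Lgals7*, 4.30 for *Lor*, 3.48 for *Ly6d*, 3.62 for *Sfn*, 2.50 for *Sprr1a*, 3.01 for *Sprr1b* and 3.12 for *Stfa3* in the proximal library, and 0.21 for *BC100530*, 0.10 for *Calm4*, 0.43 for *Krt1*, 0.92 for *Lor*, 0.11 for *Sprr1b* and 0.31 for *Stfa3* in the distal library. Leaving them out of both groups, an alternative chosen after seeing the data, gave 0.28 for *Asprv1*, 0.095 for *Calm4*, 0.33 for *Krt1*, 0.57 for *Lor*, 0.072 for *Ly6d*, 0.049 for *Sfn*, 0.23 for *Sprr1a*, 0.27 for *Sprr1b* and 0.24 for *Stfa3* in the proximal library, and 0.15 for *BC100530*, 0.064 for *Calm4*, 0.19 for *Krt1*, 0.93 for *Lor*, 0.12 for *Sprr1b* and 0.27 for *Stfa3* in the distal library, and 0.10 for *BC100530* between distal and proximal gated cells. Taking cells with all 7 gate genes gave -0.77 for *Dkk3* in the proximal and -0.54 in the distal library. Between distal and proximal gated cells it gave -2.20 for *Acta2*, which was then under 10 CPM in both libraries. Without the highest 6% of doublet scores the log2 ratio was -1.19 for *Ibsp* in the proximal and 0.23 for *Hbb-bs* in the distal library. For *Acta2* between distal and proximal gated cells that setting gave -1.47. Thinning before the gate gave -2.32 for *Acta2* between distal and proximal gated cells. The settings with all 7 genes, doublet scores or single libraries were chosen after seeing the data. Of 2865 alternative values of named genes, 44 reversed and 481 moved by over 0.5 on the log2 scale. No paired analysis was possible because each segment is 1 library and no test was run. Sampling of 1 library per segment and undetected doublets limit all contrasts, and genes under 10 CPM were not counted.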
